A study of Rattus norvegicus with 3 samples.

Results

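Cyclic AMP and cyclic GMP are second messengers that carry signals from receptors and gases into the cell. Adenylyl cyclases make cAMP, guanylyl cyclases make cGMP, and phosphodiesterases break both down. Protein kinase A (PKA), which A-kinase anchoring proteins (AKAPs) hold at particular places in the cell, the EPAC exchange factors and protein kinase G read the messengers, and PKA reaches the nucleus through the CREB family. In neurons this pathway is known for its part in axon growth and guidance and in the response to myelin.

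The genes described here are those whose symbol names an adenylyl or guanylyl cyclase, a numbered PDE, a PKA catalytic or regulatory subunit, a numbered AKAP or a protein kinase G, together with CREB1, CREM, RAPGEF3, RAPGEF4, ARPP21, ARPP19 and PPP1R1B. The rule found 46 genes among the 12758 symbols of the deposited table. They are 5 cyclases, 10 phosphodiesterases, 3 genes with a PDE name but another function, 7 kinase subunits, 14 anchoring proteins and 7 effectors and substrates. A further 31 protein-coding genes of the rat RefSeq annotation fit the rule and have no entry in the table used here. They are the cyclases ADCY1, ADCY4, ADCY7, ADCY8, ADCY9, ADCY10, GUCY1A1, GUCY1A2, GUCY1B2, GUCY2C, GUCY2D, GUCY2E, GUCY2F and GUCY2G, the phosphodiesterase genes PDE1B, PDE3A, PDE3B, PDE4C, PDE6A, PDE6B, PDE6C, PDE6G, PDE6H, PDE7A, PDE8B, PDE10A and PDE11A, the anchoring proteins AKAP3, AKAP4 and AKAP14, and the kinase PRKG1.

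The RNA came from the supernatant of rat spinal cord that was digested with a protease active in the cold and freed of cells by centrifugation, a fraction the study prepared to enrich axonal RNA. The rats were female Sprague Dawley animals of 3 months. No-SCI animals had a laminectomy at thoracic level 9 without contusion, SCI animals had the laminectomy and a contusion, and cord just rostral of the lesion was taken after 24 h. The labels give 2 No-SCI libraries and 1 SCI library, while the paper's methods name 2 animals per condition. The table holds 1 FPKM value per group (fragments scaled to transcript length and to the size of the library) and none per library, so no spread between animals, interval or test could be computed, and the depth behind a value is unknown. Every value below is the authors' group value, and every fold or log2 ratio is SCI against No-SCI without a replicate check. Genes are described as past the fold minimum when the ratio is at least 2-fold in either direction.

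Over the 12703 symbols with neither value at the lowest in the table, the median log2 ratio was −0.12, and log2 ratios are given as deposited, not centred on it. Of all these symbols 7.86% were at least 2-fold higher after SCI and 11.9% at least 2-fold lower. Of the 46 signalling genes 4 (8.70%) were at least 2-fold higher and 7 (15.2%) at least 2-fold lower, shares near those of all symbols. As deposited 12 were higher and 34 lower, while of all 12703 symbols 5550 were higher and 7153 lower. Relative to the median of all symbols 19 of the 46 were higher and 27 lower. The median log2 ratio of the 46 was −0.21. The 4 higher genes were PDE1A, AKAP12, PDE5A and PRKAR2B, and the 7 lower ones GUCY1B1, ARPP21, PRKACB, PDE4DIP, PRKAR1B, AKAP6 and RAPGEF3.

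In level the family spanned the table. CREM had 1993 FPKM in No-SCI, rank 72 of all symbols, and made up 40.5% of the summed FPKM of the 46 genes, followed by PRKAR1A with 654 FPKM, ARPP19 with 606 FPKM and AKAP2 with 496 FPKM. At the other end PDE5A (1.42 FPKM), PDE1A (2.18 FPKM), PRKG2 (2.32 FPKM) and PRKAR2B (2.60 FPKM) lay close to the lowest value in the table, 1, where a constant added to all values would understate a ratio. The values of 36 of the 46 genes, and of 58.6% of all symbols, carry more than the 6 digits of a single Cuffdiff estimate, as a sum over several entries of 1 gene would, so a level relative to another gene can depend on how many entries were combined. All 11 genes past the fold minimum are among those 36. Of all symbols with more than 6 digits 8.50% were at least 2-fold higher and 15.4% at least 2-fold lower, against 6.96% and 7.02% of the others, and the part of this in the 11 genes was not tested.

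**Figure D1:**
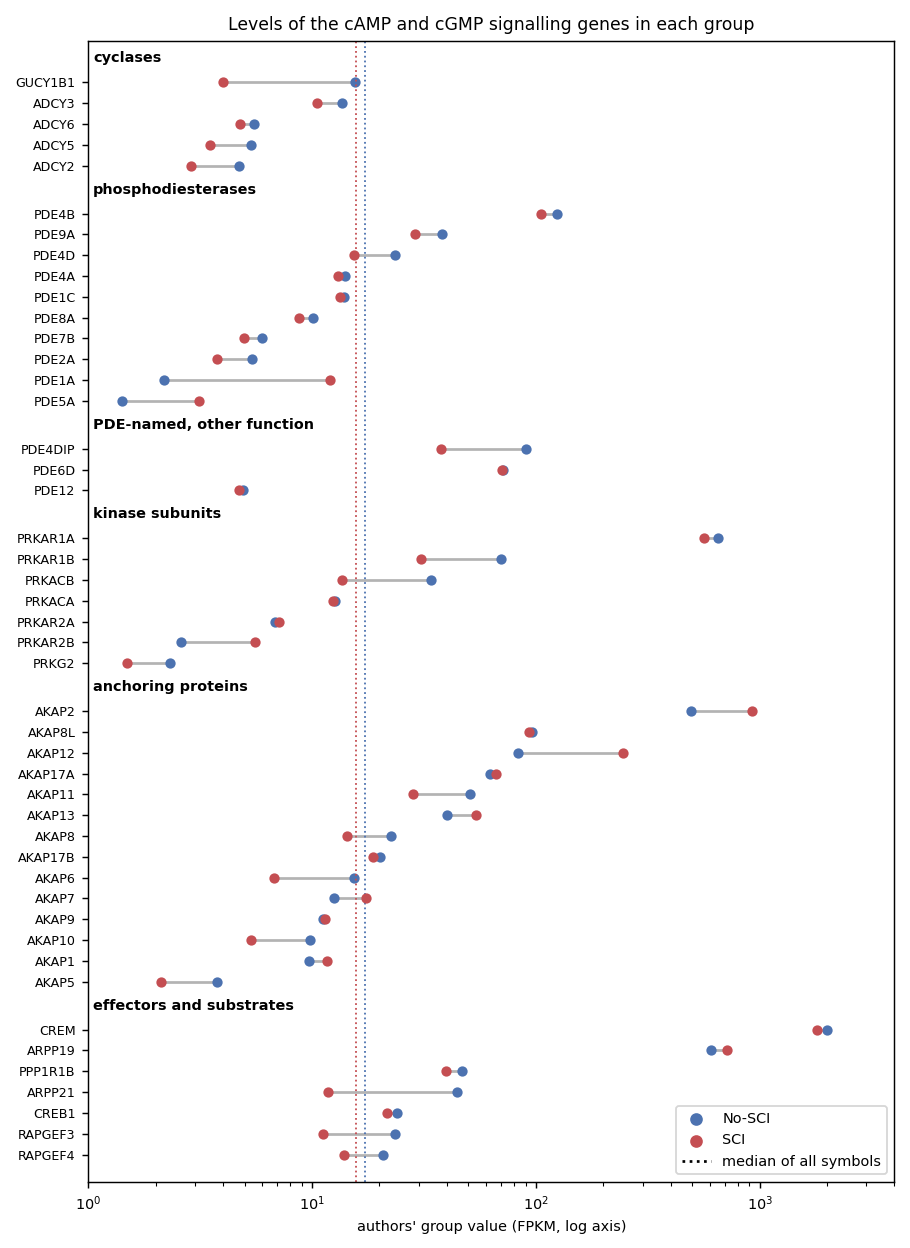
Authors' FPKM value of each of the 46 genes in No-SCI (blue) and SCI (red) on a log axis, grouped by role and ordered by the No-SCI level; dotted lines are the medians of all symbols. GUCY1B1, ARPP21 and PRKACB show the widest gaps to the left, PDE1A and AKAP12 to the right, and CREM, the most abundant, barely moves between 1993 and 1803 FPKM.

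Each of the 5 cyclases was lower after SCI, and each remained lower relative to the median of all symbols. GUCY1B1, the beta subunit of the nitric oxide-sensitive soluble guanylyl cyclase, had 15.6 in No-SCI and 4.01 FPKM in SCI, 3.89-fold lower (log2 ratio −1.96), and only 1.25% of all symbols had a smaller log2 ratio. It is the only guanylyl cyclase listed, since the alpha subunits with which it forms the enzyme have no entry. The 4 adenylyl cyclases differed by less than 2-fold. ADCY2 went from 4.74 to 2.87 FPKM (log2 ratio −0.72) and ADCY5, which calcium inhibits, from 5.33 to 3.50 FPKM (−0.61). ADCY3, the cyclase of olfactory and neuronal cilia, had 13.6 and 10.5 FPKM (−0.37), and ADCY6, the close relative of ADCY5, 5.51 and 4.76 FPKM (−0.21). ADCY3 was the most abundant adenylyl cyclase in both groups, and all 4 lay below the median level of all symbols.

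The phosphodiesterases were less shifted than the cyclases, and within them 2 genes stood apart on the high side. PDE1A, a calcium and calmodulin-activated enzyme that hydrolyses both messengers, went from 2.18 to 12.1 FPKM, 5.54-fold higher (log2 ratio 2.47), above 99.1% of all symbols. Its paralog PDE1C stayed within 2-fold, at 13.9 and 13.3 FPKM. PDE1C was thus 6.40 times as abundant as PDE1A in No-SCI and 1.10 times in SCI. PDE5A, the cGMP-specific enzyme that sildenafil inhibits, had 1.42 in No-SCI and 3.14 FPKM in SCI (2.21-fold, log2 ratio 1.14). This ratio depends on how values near 1 are treated. The log2 ratio was 0.77 with a pseudocount of 1, under the fold minimum, and 2.35 with 1 subtracted from every value. For PDE1A the log2 ratio was 2.04 with a pseudocount of 1 and 3.23 with 1 subtracted. PDE9A, the high-affinity cGMP-specific enzyme, was far more abundant, with 38.1 and 28.7 FPKM (log2 ratio −0.41).

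The cAMP-specific phosphodiesterases all lay within 2-fold. PDE4B carried the most of the class, 52.0% of the summed phosphodiesterase FPKM in No-SCI and 50.5% after SCI, with 124 and 105 FPKM (log2 ratio −0.24). PDE4D had 23.5 and 15.3 FPKM (−0.61) and PDE4A 14.1 and 13.0 FPKM (−0.11). PDE7B had 5.96 and 4.97 FPKM (−0.26) and PDE8A 10.1 and 8.73 FPKM (−0.21). PDE2A, a dual enzyme that cGMP stimulates, had 5.37 and 3.78 FPKM (−0.51). The small differences of PDE4A and PDE1C change sign when the median of all symbols is centred at 0. Of the 10 phosphodiesterases 8 were lower and 2 higher as deposited, or 6 and 4 after centring.

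The other PDE-named genes do not break down cyclic nucleotides. PDE4DIP, known as myomegalin, a Golgi and centrosome scaffold that binds PDE4D, went from 90.1 to 37.8 FPKM, 2.38-fold lower (log2 ratio −1.25). PDE6D, a chaperone for prenylated proteins, had 71.5 and 70.5 FPKM, and PDE12, a mitochondrial exonuclease of RNA tails, 4.91 and 4.73 FPKM. These last differences, log2 ratios of −0.02 and −0.055, are smaller than the shift of all symbols and turn positive after centring.

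Set side by side, the median log2 ratio was −0.61 for the 5 cyclases, −0.23 for the 10 phosphodiesterases and −0.22 for the 7 kinase subunits, against −0.12 for all symbols. The summed FPKM of the cyclases was 44.8 in No-SCI and 25.7 after SCI, that of the phosphodiesterases 239 and 208, and that of the kinase subunits 782 and 634. The ratio of summed cyclases to summed phosphodiesterases was 0.188 in No-SCI and 0.123 after SCI, 1.52 times lower, and the ratio of cyclases to kinase subunits went from 0.0573 to 0.0405. For the adenylyl cyclases against the cAMP-specific phosphodiesterases the ratio was 0.164 and 0.147, and for GUCY1B1 against PDE5A and PDE9A together it was 0.395 and 0.126. The sum of PDE5A and PDE9A was 1.24-fold lower after SCI and that of the cAMP-specific phosphodiesterases 1.21-fold lower. The larger difference of the second ratio is thus that of GUCY1B1, a single gene. PDE1A, PDE1C and PDE2A, which act on both messengers, are in neither ratio. A class of few genes is set by single members, and these genes share their libraries, so the difference between classes was not tested.

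**Figure D2:**
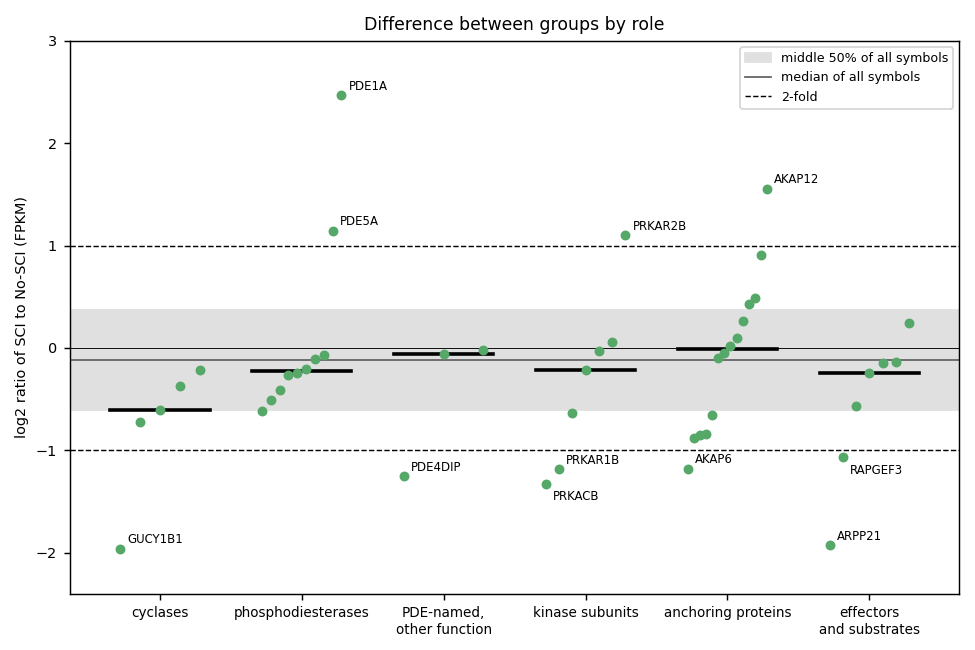
Log2 ratio of SCI to No-SCI for each gene by role, with the class median (black bar), the median and middle 50% of all symbols (grey line and band) and the 2-fold limits (dashed). The cyclases all lie below 0 with a median of −0.61, the anchoring proteins spread to both sides, and the 11 genes past 2-fold are named.

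PKA is a tetramer of regulatory and catalytic subunits that cAMP takes apart, and its subunit genes differed from one another. PRKACB, the beta catalytic subunit, had 34.1 in No-SCI and 13.6 FPKM in SCI, 2.505-fold lower (log2 ratio −1.32). PRKACA, the alpha catalytic subunit, had 12.7 and 12.4 FPKM (−0.03), a sign that centring turns. Hence PRKACB was 2.69 times as abundant as PRKACA in No-SCI and 1.10 times after SCI.

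Among regulatory subunits the same kind of contrast appeared between PRKAR1B and PRKAR1A. PRKAR1B, a type I subunit found mainly in neurons, went from 69.8 to 30.7 FPKM, 2.28-fold lower (log2 ratio −1.19). PRKAR1A, the widely expressed type I subunit, had 654 and 563 FPKM (−0.22) and made up 89.2% of the summed regulatory FPKM in No-SCI and 92.8% after SCI. The type II subunits were scarce. PRKAR2B had 2.60 in No-SCI and 5.56 FPKM in SCI (2.14-fold, log2 ratio 1.10), with a log2 ratio of 0.87 under a pseudocount of 1 and of 1.52 with 1 subtracted, and PRKAR2A had 6.86 and 7.13 FPKM (0.06). Type II summed to 0.0131 of type I in No-SCI and 0.0214 after SCI. Summed catalytic subunits were 0.0639 of summed regulatory subunits in No-SCI and 0.0430 after SCI. PRKG2, the membrane-bound protein kinase G, was low in both groups, with 2.32 and 1.49 FPKM (log2 ratio −0.64).

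**Figure D3:**
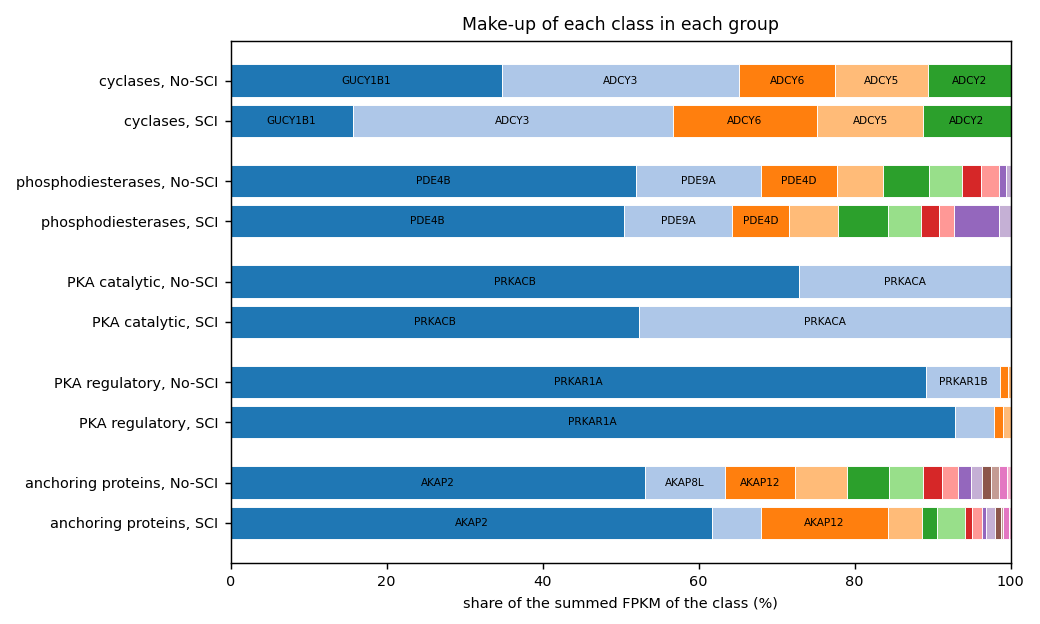
Share of the summed FPKM of each class taken by each gene (percent, stacked to 100) in No-SCI and SCI; segments of at most 7% carry no label and keep their colour within a class. PRKACB goes from 72.9% to 52.3% of the catalytic sum, GUCY1B1 from 34.8% to 15.6% of the cyclase sum and AKAP12 from 8.94% to 16.3% of the anchoring sum.

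The anchoring proteins split evenly, with 7 higher and 7 lower as deposited (9 and 5 after centring) and a median log2 ratio of −0.01. AKAP12, the large scaffold gravin, had 83.5 in No-SCI and 245 FPKM in SCI, 2.94-fold higher (log2 ratio 1.56), above 96.8% of all symbols. AKAP2, the most abundant anchoring gene, went from 496 to 929 FPKM (1.87-fold, log2 ratio 0.91). It was under 2-fold as deposited and past 2-fold after centring (1.02). RefSeq lists AKAP2 as a synonym of a gene that it shares with Palm2, so its value can include transcripts of both. The summed anchoring FPKM was 934 in No-SCI and 1504 after SCI, and AKAP2 and AKAP12 made up 61.8% and 16.3% of the latter.

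On the low side AKAP6, which anchors PKA at the nuclear envelope, had 15.4 and 6.79 FPKM, 2.27-fold lower (log2 ratio −1.18). AKAP10, AKAP11 and AKAP5, the last a scaffold of the postsynaptic density, were 1.85-fold, 1.80-fold and 1.79-fold lower, with AKAP11 the most abundant of them at 50.8 and 28.1 FPKM. AKAP8, a nuclear protein, had 22.5 and 14.3 FPKM (−0.66), while its relative AKAP8L had 96.5 and 93.2 FPKM (−0.05). Among the higher ones AKAP7 (log2 ratio 0.49), AKAP13 (0.43) and AKAP1, the mitochondrial anchor (0.26), stayed under 2-fold. AKAP9, a Golgi and centrosome scaffold, AKAP17A, which is linked to splicing, and AKAP17B had log2 ratios of 0.02, 0.09 and −0.10, and centring makes the last one positive.

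Of the effectors, RAPGEF3 (EPAC1), a cAMP-gated activator of the small GTPase Rap1, had 23.5 in No-SCI and 11.2 FPKM in SCI, 2.10-fold lower (log2 ratio −1.07), and −0.95 after centring. RAPGEF4 (EPAC2), its relative of neurons and endocrine cells, had 20.7 and 13.9 FPKM (−0.57). ARPP21, a cAMP-regulated phosphoprotein that binds RNA, went from 44.7 to 11.7 FPKM, 3.80-fold lower (−1.93), the second lowest log2 ratio of the 46. Its namesake ARPP19, an inhibitor of protein phosphatase 2A, had 606 and 715 FPKM (0.24). PPP1R1B (DARPP-32), which inhibits protein phosphatase 1 once PKA has phosphorylated it, had 46.9 and 39.5 FPKM (−0.25).

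CREB1 and CREM differed little between the groups. CREB1 had 23.9 FPKM in uninjured and 21.7 FPKM in contused animals. CREM, whose short products repress CRE-driven genes, had 1993 and 1803 FPKM. Their log2 ratios, both −0.14, are within 0.03 of the median of all symbols, and CREM was 83.2 and 83.1 times as abundant as CREB1. The values of CREM in both groups and the SCI value of CREB1 carry more than 6 digits, which bears on that comparison.

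CREB and CREM bind the cAMP response element (CRE), the palindrome TGACGTCA. RefSeq promoter windows (build GRCr8, 250 bases before to 50 after a start) exist for 37 of the 46 genes, 52 windows in all. The full CRE occurs in 3 of the 52 windows, in 2 genes, CREM and AKAP17A, which is 5.77% of them, against 2.95% of the windows of all symbols in the table and 1.83% of all 33469 rat windows. Counted by gene it occurs in 2 of 37, against 309 of 9762 for all symbols in the table. So few matches are not read as a difference. The core TGACG, which the full element contains, occurs on either strand in 30.8% of the windows of these genes, in 30.6% of those of all symbols in the table and in 21.2% of all windows. The core was thus no more frequent here than among the genes of the table. CREM has 3 windows. The most upstream one holds no full element, and the other two hold it 56 and 35 bases before their starts, the last window with 1 more after its start. The stretches are printed for CREM as the most abundant gene and a member of the family that binds the element, and for AKAP17A as the other gene with a match. That of DUSP1, a CREB target of the wider pathway described next, is added. In that pathway 2 of 36 genes with a window hold the full element, DUSP1 (5.81-fold higher after SCI) and RAP1B (1.35-fold higher, not printed). A link between the element and these ratios was not tested. Capitals mark the CRE, and the match is of letters alone.
CREM middle start (chr17:58984726-58984763, plus strand): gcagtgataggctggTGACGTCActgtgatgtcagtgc
CREM last start (chr17:58985440-58985477, plus strand): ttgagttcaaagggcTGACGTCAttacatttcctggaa
AKAP17A (chr12:21428437-21428474, minus strand): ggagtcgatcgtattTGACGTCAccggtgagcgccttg
DUSP1 (chr10:17184714-17184751, plus strand): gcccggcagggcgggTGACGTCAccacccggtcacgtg

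The wider pathway was taken from a list of 73 receptors, G proteins, PKA inhibitors, CREB coactivators and targets, of which 47 have an entry. Of these 5 (10.6%) were at least 2-fold higher and 7 (14.9%) at least 2-fold lower, against 7.86% and 11.9% of all symbols, so these shares are near the background and are no result about the list. The median log2 ratio was −0.24. The higher genes were 3 products of early transcription, DUSP1 (6.96 to 40.4 FPKM, 5.81-fold), FOS (43.8 to 96.8 FPKM, 2.21-fold) and SIK1 (5.64 to 12.02 FPKM, 2.13-fold), with CRTC3, a CREB coactivator (1.85 to 6.37 FPKM), and PTH1R, a Gs-coupled receptor (19.0 to 64.7 FPKM). Not every CREB target was higher, since NR4A1 had 9.79 and 5.33 FPKM. NR4A2 was higher, with 4.98 and 9.50 FPKM, under 2-fold as deposited and past 2-fold after centring.

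The 7 lower genes include 3 receptors and 1 PKA inhibitor. ADORA1, the Gi-coupled adenosine receptor, had 519 in No-SCI and 116 FPKM in SCI, 4.47-fold lower. ADCYAP1R1, the receptor for the peptide PACAP, had 47.2 and 14.5 FPKM (3.26-fold lower), and CALCRL 18.2 and 6.43 FPKM (2.83-fold lower). RAP1GAP, CREB5 and GNAZ, an inhibitory G protein, were 2.43-fold, 2.43-fold and 2.01-fold lower, GNAZ with a log2 ratio of −0.89 after centring. The PKA inhibitor peptides diverged, with PKIA at 133 and 37.1 FPKM (3.58-fold lower), PKIB at 169 and 107 FPKM, and PKIG, the most abundant gene of the list, at 2502 and 2924 FPKM. GNAI2, the third most abundant, had 448 and 463 FPKM, and GNAS, the stimulatory G protein, 79.3 and 55.3 FPKM.

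The cell type markers of the supernatant differed between the groups as well. How much material of a cell type was in the supernatant and how much of an RNA that material held cannot be told apart in such values. Of 9 listed neuronal markers 5 were at least 2-fold lower and none at least 2-fold higher, with GAP43 and NEFH slightly higher (log2 ratio 0.14 each). The summed FPKM of the 9 went from 3891 to 2477, with MAP2, GAP43 and THY1 the most abundant, and SNAP25 and NEFM have no entry. Of 15 listed oligodendrocyte markers, led by MOBP and BCAS1, 9 were at least 2-fold lower (summed FPKM 90432 and 49090). MOBP and BCAS1 were 1.60-fold and 1.97-fold lower, ASPA and CLDN14 were higher (1.34-fold and 1.24-fold), and MBP has no entry. Of 6 listed astrocyte markers, led by NDRG2, GLUL and GJA1, 4 were at least 2-fold lower (14035 and 8956) and GJB6 was higher (1.17-fold). GFAP, AQP4, SLC1A3, ALDOC and S100B have no entry. All 7 skeletal muscle markers, led by TNNT3, MYL1 and ACTA1, were lower (393 and 31.8). The 9 meningeal fibroblast markers, led by CRABP2, DCN and PDGFRA, were all higher and 8 of them at least 2-fold (66.5 and 815), as were 4 of 5 macrophage and neutrophil markers, led by LYZ2, S100A8 and S100A9 (260 and 781). Of 10 microglial markers, led by AIF1, TYROBP and C1QB, 1 was at least 2-fold higher and 3 at least 2-fold lower. Their median log2 ratio was 0.09. For the smooth muscle and pericyte list, led by TAGLN, DES and RGS5, it was 0.02, and for the endothelial list, led by CLDN5, SLCO1A4 and CDH5, −0.23. Of the 6 endothelial markers CDH5 was 3.05-fold higher and SLCO1A4 2.58-fold lower, and the other 4 were within 2-fold. The part of these markers in the lower values of GUCY1B1, ARPP21, PRKACB, PDE4DIP, PRKAR1B, AKAP6 and RAPGEF3 was not tested. Nor was their part in the higher values of PDE1A, AKAP12, PDE5A and PRKAR2B.

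**Figure D4:**
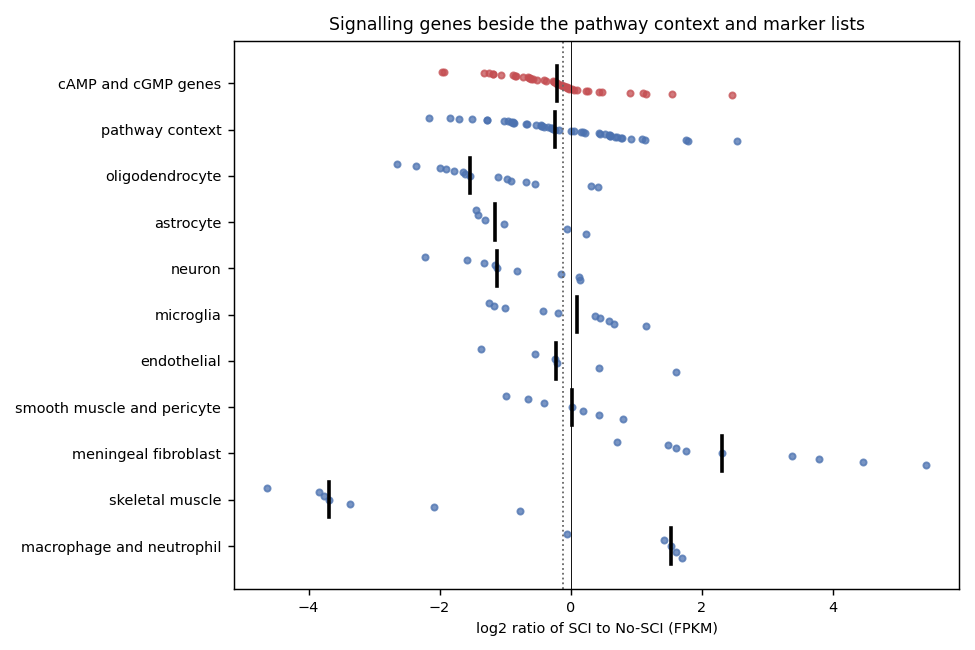
Log2 ratio of SCI to No-SCI for the 46 genes (red) and for the listed genes of the pathway context and each marker list (blue), with list medians as black bars; the dotted line is the median of all symbols. The signalling genes centre at −0.21 between the fibroblast markers, with a median of 2.31, and the oligodendrocyte and skeletal muscle markers, with medians of −1.53 and −3.68.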

How the data were processed

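Stranded libraries were made by the authors from total RNA freed of ribosomal RNA. Each was reduced to the read number of the shallowest one and aligned to rn6 by STAR 2.5.4b, and FPKM values came from Cuffdiff 1.3.0 after upper quartile normalization. The authors deposited 1 FPKM value per entry for each group. The remaining columns hold the authors' own fold changes, p-values, q-values and calls, and none was used here.

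The table has 12771 entries and 12758 symbols, and for 13 symbols listed more than once the entry with the larger mean was taken. The 55 symbols with a value at 1 in either group were left out of ratios. No test was possible. Ratios and sums were computed with Python 3.11.15, numpy 2.4.6 and pandas 2.3.3, plotted with matplotlib 3.10.9 and tested on simulated data. Members, lists and the fold minimum of 2 were chosen with earlier results of these data known. The genes named are all 46 members, the context genes past 2-fold and the 3 most abundant of each list, of which 1 is not reported here. PDE4DIP, PDE6D and PDE12 were kept apart from the phosphodiesterases. NR4A1, NR4A2, PKIB, GNAS, NEFH, ASPA, CLDN14 and GJB6, and the markers without an entry, were named after their values were seen. RefSeq (GRCr8) gave names, 45 members by symbol and 1 by synonym, and promoter windows. Since the values were made on rn6, the promoter coordinates are those of the RefSeq table alone.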

Additional observations from a re-analysis of the deposited data

How the results depend on the processing

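With 1 value per group, leaving out a library was not possible. No paired analysis was possible because the table gives no value per library. The 4 genes at least 2-fold higher became 2 with a pseudocount of 1, 2 at a mean of at least 5 FPKM and 1 at a fold minimum of 3. They became 5 with centring on the median, with scaling to the same upper quartile and at a fold minimum of 1.5. The 7 at least 2-fold lower became 10 with 1 subtracted from every value, 15 at a fold minimum of 1.5 and 2 at a minimum of 3. With centring or upper quartile scaling they became 6. When entries with more than 6 digits were left out, both counts were 0, since all 11 genes carry such values, and no cyclase was left to give a median or a ratio. The median log2 ratio of the phosphodiesterases, −0.23, turned to 0.12 (0.119) with the mean in its place, as PDE1A and PDE5A weigh more in a mean. The ratio of summed cyclases to summed phosphodiesterases was 0.1105 in No-SCI and 0.07998 after SCI with all PDE-named genes counted, and 0.3909 and 0.2493 with PDE4B left out, an alternative chosen after the data were seen. It was lower after SCI under each of these, but none of them left out GUCY1B1. Without GUCY1B1 the summed cyclase FPKM was 29.2 in No-SCI and 21.7 after SCI. The median log2 ratio of the cyclases, −0.61, was −0.37 at a mean of at least 5 FPKM. Of 66 values of the 11 genes under pseudocounts of 1 and 0.1, subtraction of 1 and 3 scalings, 4 came under 2-fold. That 0 changed sign is no check. A constant added to or taken from both values cannot reverse a ratio, and the 3 scalings are small beside a 2-fold ratio.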
